A study of Saccharomyces cerevisiae with 18 samples.

Results

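The change of messenger RNA levels between glycerol and YPD was measured in yeast that carried the S96 allele of *YRR1*. It is the contrast of 2 libraries from glycerol (s96_gly_S15 and s96_gly_S16) with 2 libraries from YPD (s96_ypd_S3 and s96_ypd_S4), so that 4 of the 18 libraries of the series were compared. Of 6713 genes with a count value, 5766 passed the filter on low counts and were tested. The host of all 18 libraries was haploid MATa S96, a strain isogenic with the reference strain S288c, in which *YRR1* had been replaced by a hygromycin resistance gene. Each culture carried a plasmid with 1 allele of *YRR1* under its own promoter. The S96 allele is called Yrr1S, the allele of the clinical isolate YJM789 is called Yrr1Y, and the S96 allele with the substitution I775E is called Yrr1IE. YPD is rich medium with dextrose (glucose), and the series also holds cultures in YPD with 0.25 µg/ml of the mutagen 4-nitroquinoline-1-oxide (4NQO) for 2.5 h. The labels describe the glycerol cultures as grown in rich glycerol medium to mid-log phase, whereas the methods of the study describe cells that were grown in YPD, washed and diluted into 3% glycerol for 10 h. The YPD cultures were grown on for 2.5 h. Carbon source, time and the wash can therefore not be told apart here. The 2 libraries of a condition came from replicate cultures. By the labels the YPD and 4NQO libraries came from subcultures of the same parent cultures, and by the methods the glycerol ones may also share a parent with them, but which libraries share one is not stated, so no pairing was fitted.

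Glucose is fermented by yeast even in air, and while it lasts it represses the genes for respiration, for gluconeogenesis and for the use of other carbon sources. Glycerol cannot be fermented. It enters metabolism as dihydroxyacetone phosphate, is oxidized in mitochondria for energy, and must also supply hexoses by gluconeogenesis. In glucose-free medium the kinase Snf1 is active, the repressor Mig1 leaves the nucleus, and the activators Adr1, Cat8 and the Hap2/3/4/5 complex turn on their targets. Fast growth on glucose in turn keeps up the synthesis of ribosomes and represses the stress genes that Msn2 and Msn4 activate. Yrr1 is a zinc cluster transcription factor of drug resistance genes.

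Library totals were 2023975 and 2147374 counts in glycerol, against 2062445 and 2826771 counts in YPD, within the range of the 18 libraries (1475372 to 2826771 counts). Levels are counts per 1000000 counts of the scaled library total (CPM), and levels of different genes are compared only as FPKM, which divides by transcript length. The correlation of log2 CPM between the 2 libraries of a condition was 0.962 to 0.984 over the 9 conditions. Changes are log2 fold changes of glycerol over YPD with their standard error (SE), and a gene was called at an adjusted p below 0.05 in edgeR's quasi-likelihood test.

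Of the 5766 genes tested, 3327 (57.7%) were called, 1678 (29.1%) higher and 1649 (28.6%) lower in glycerol. At least 2-fold, 1149 genes (19.9%) rose and 908 (15.7%) fell. At least 4-fold, 549 genes (9.52%) rose and 234 (4.06%) fell. The libraries of the 2 conditions did not overlap for 4557 genes (79%). The split of the calls depends on the scaling: by library totals alone, without the TMM factors, 2041 genes were called higher and 1339 lower and the median log2 change over all genes was 0.23 instead of 0.04, and limma on log2(FPKM + 1) called 1969 higher and 1277 lower. The counts for gene groups below are therefore read against 29.1% higher and 28.6% lower, the shares over all genes.

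The genes with the largest changes encoded enzymes and transporters for two-carbon and three-carbon compounds, small stress proteins and proteins of starved cells. *ADH2*, the glucose-repressed alcohol dehydrogenase that oxidizes ethanol, had 23713 and 26779 CPM in glycerol, against 14.9 and 14.6 CPM in YPD (log2 fold change 10.73, SE 0.33, edgeR adjusted p = 1.1e-21). *ADY2*, an acetate transporter, had 3987 and 4552 CPM in glycerol, against 2.99 and 3.16 CPM in YPD (log2 fold change 10.41, SE 0.26). *JEN1*, the lactate and pyruvate transporter, had 7568 and 8378 CPM in glycerol, against 6.48 and 5.93 CPM in YPD (log2 fold change 10.32, SE 0.25). The fold changes were 1703, 1359 and 1279.5, and the conditions were far apart in all 3 genes. *FDH1*, a formate dehydrogenase gene, had 475 and 498 counts in glycerol and 0 in both YPD libraries, which makes it at least 332-fold higher against a floor of 3 counts over the YPD libraries. *RGI2*, a gene of energy metabolism under respiratory growth, had 4048 counts in glycerol and 2 in YPD, a ratio of 2069 with a 95% counting interval of 572 to 17089. *SPG1*, known for survival at high temperature in stationary phase, had 1690 counts in glycerol and 2 in YPD, a ratio of 864 with a counting interval of 239 to 7138. These 3 genes were close to undetected in YPD at this depth, so that the intervals, which cover counting error only, are wide. The highest library total exceeds the most read pairs that the study gives for any library, so both reads of a pair may be counted. All counting intervals given here treat counts as independent and may therefore be too narrow, and the floor of 3 counts too low. *GRE1*, a hydrophilin gene known from osmotic stress and drying, had 3904 and 5260.4 CPM in glycerol, against 5.98 and 5.14 CPM in YPD, and its paralog *SIP18* had 1040.5 and 1199.7 CPM in glycerol, against 3.49 and 0.79 CPM in YPD.

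**Figure D1:**
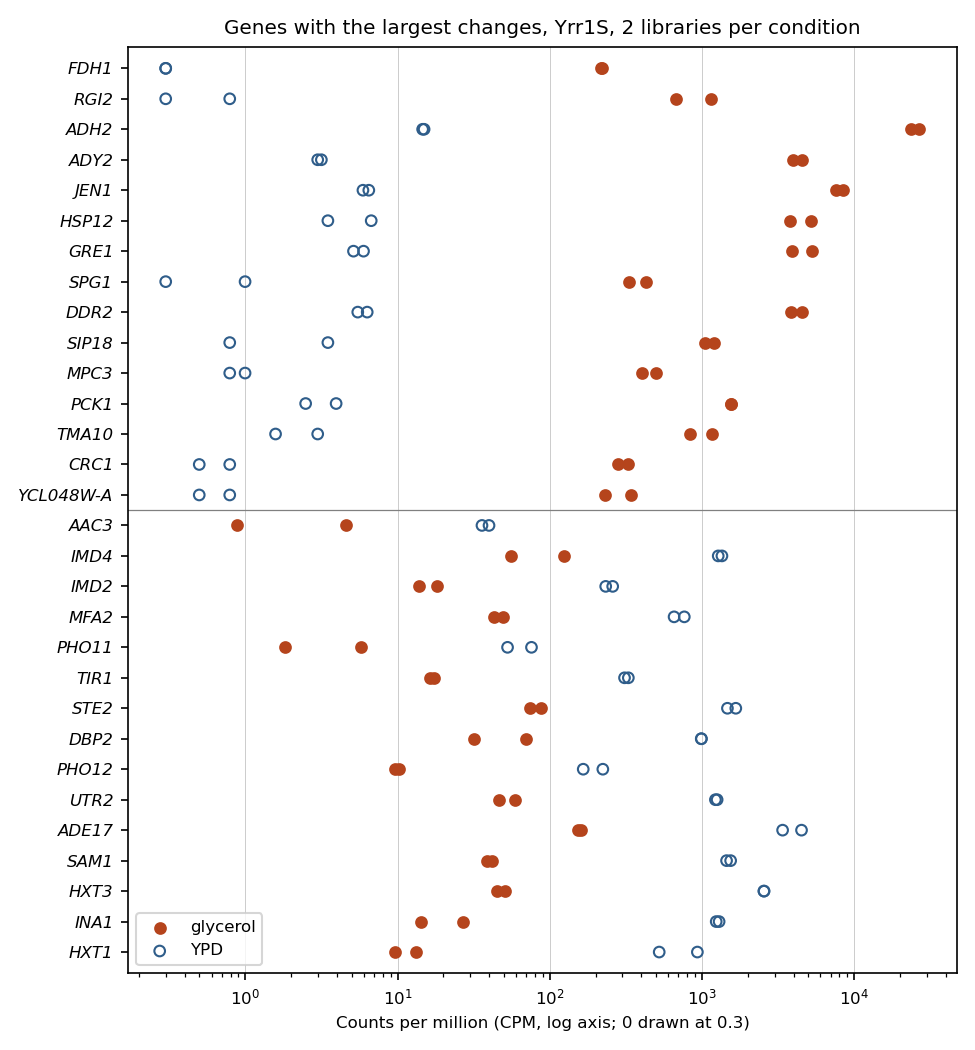
Level (CPM, log axis) of the 15 genes that rose most and the 15 that fell most by log2 fold change, taken from called genes with no overlap and a mean of 20 CPM or more, 1 point per library. Filled points are the 2 glycerol libraries and open points the 2 YPD libraries, and a value of 0 is drawn at 0.3 CPM. The conditions are separated for each gene, by over 4 log2 units in most of them.

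Among the genes with the largest decrease, 2 low-affinity hexose transporters stood among the first 3. *HXT1* had 9.6 and 13.3 CPM in glycerol, against 524 and 933 CPM in YPD (log2 fold change -5.98, SE 0.30). *HXT3* had 50.8 and 45.3 CPM in glycerol, against 2558 and 2552 CPM in YPD (log2 fold change -5.73, SE 0.15). Both YPD libraries lay far above both glycerol libraries. *INA1*, a membrane protein gene with no role given here, lay between them at -5.95. The next genes by size were *SAM1*, an S-adenosylmethionine synthetase, *ADE17* of purine synthesis, *UTR2*, a cell wall transglycosidase, *PHO12*, an acid phosphatase, *DBP2*, an RNA helicase of ribosome assembly, and *STE2*, the receptor for alpha factor, with log2 fold changes of -5.22, -4.65, -4.55, -4.29, -4.28 and -4.28.

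**Figure D2:**
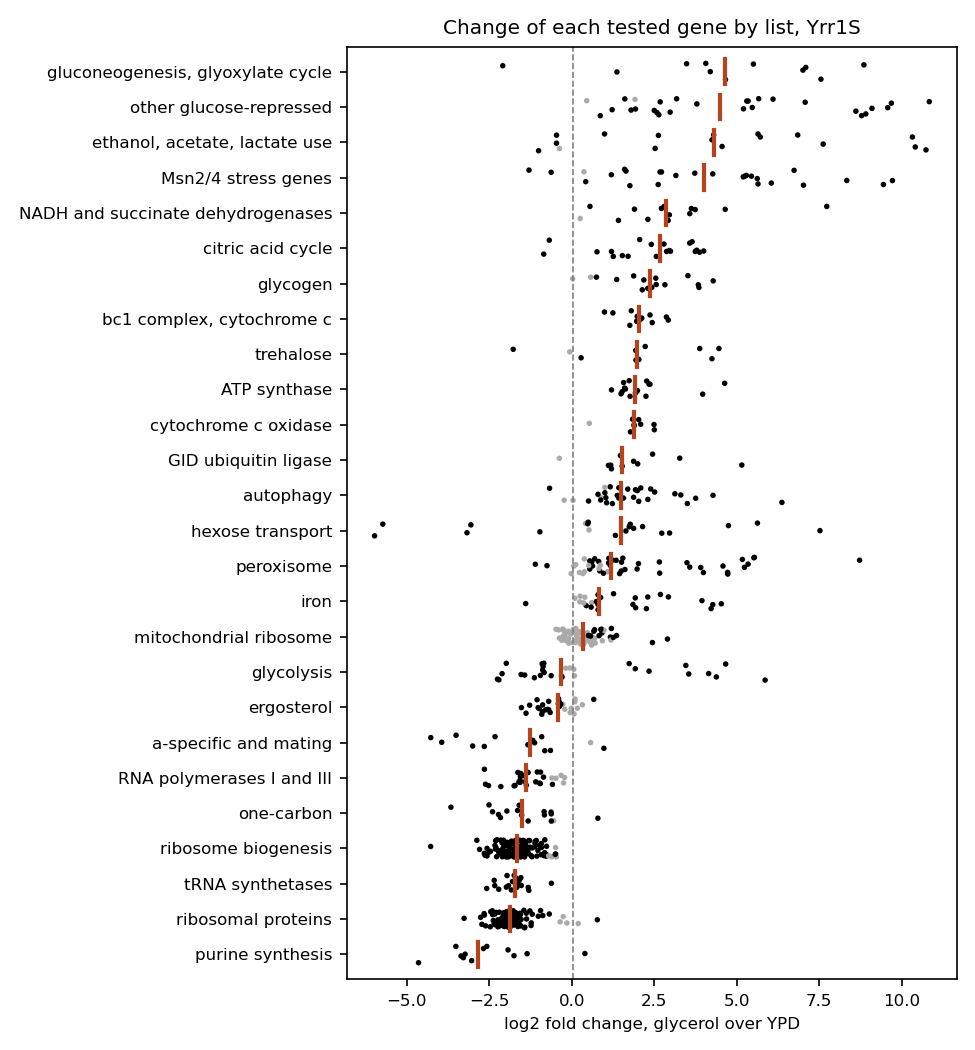
Log2 fold change of glycerol over YPD with Yrr1S for each tested gene of 26 gene lists, 1 point per gene, with a bar at the list's median. Black points were called and grey points were not, and the dashed line marks the median over all 5766 genes tested (0.04). Lists of carbon and stress metabolism lie right of the line and lists of ribosomes, translation and purine synthesis left of it.

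Of 17 genes for the use of ethanol, acetate and lactate, 13 rose, 3 fell and 1 was not called, with a median log2 fold change of 4.30 against 0.04 over all genes. *ACS1*, the acetyl-CoA synthetase of non-fermentable growth, had 6917 and 7712 CPM in glycerol, against 31.4 and 42.3 CPM in YPD (log2 fold change 7.62, SE 0.21). *ALD4*, the mitochondrial acetaldehyde dehydrogenase, had 9143 and 8988 CPM in glycerol, against 97.2 and 62 CPM in YPD. *ATO3*, a membrane protein related to the acetate transporter *ADY2*, had 3168 and 3571 CPM in glycerol, against 156 and 198 CPM in YPD. For all 3, both glycerol libraries were over 10 times the higher YPD library. *CYB2* and *DLD1*, the L-lactate and D-lactate dehydrogenases that pass electrons to cytochrome c, rose by 4.55 and 2.62 on the log2 scale. The members that fell were *ACS2*, the acetyl-CoA synthetase used on glucose (-0.47), *DLD3*, a cytosolic 2-hydroxyglutarate transhydrogenase (-1.01), and *DLD2*, its mitochondrial relative (-0.47, not called without YPD replicate 2, edgeR adjusted p = 0.126). The 17 genes took up 6.46% and 6.86% of all counts in glycerol, against 0.21% and 0.19% in YPD, most of it from *ADH2*, *ALD4*, *JEN1* and *ACS1*.

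Gluconeogenesis and the glyoxylate cycle build hexoses from acetyl-CoA and oxaloacetate. Of 11 genes of these paths, 10 rose and 1 fell, with a median of 4.66. *PCK1*, phosphoenolpyruvate carboxykinase, which commits oxaloacetate to gluconeogenesis, had 1548 and 1554 CPM in glycerol, against 2.49 and 3.95 CPM in YPD (log2 fold change 8.85, SE 0.22, edgeR adjusted p = 1.43e-23). *FBP1*, fructose-1,6-bisphosphatase, had 1638 and 1952 CPM in glycerol, against 16.4 and 11.9 CPM in YPD (log2 fold change 7.0, SE 0.19). *ICL1*, the isocitrate lyase that splits isocitrate to glyoxylate, had 1188 and 1167 CPM in glycerol, against 63.3 and 65.2 CPM in YPD (log2 fold change 4.19, SE 0.20). The 2 glycerol libraries of each gene differed by less than 1.2 times. *MLS1*, the malate synthase, *IDP2*, the cytosolic isocitrate dehydrogenase, *MDH2*, the cytosolic malate dehydrogenase, and *CIT2*, the peroxisomal citrate synthase, rose by 7.55, 7.09, 5.50 and 3.48. The member that fell was *MAE1*, the mitochondrial malic enzyme, with 89.6 and 58.6 CPM in glycerol and 301 and 333 CPM in YPD (log2 fold change -2.10).

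The carbon source-responsive element (CSRE), the site of Cat8 and Sip4, was searched on both strands as CC, any 2 bases, T, any 3 bases and CCG. In the 500 bases before the start codon, a window added after the data were seen, it was found before 6 of the 11 gluconeogenic genes (54.5%), 5 of the 17 genes for acetate, ethanol and lactate (29.4%) and 80 of 529 genes called higher at least 4-fold (15.1%), against 403 of 5617 promoters of all genes tested (7.2%). In the window of 250 bases before to 50 after the start codon, none of the 11 and none of the 17 had a match, and 3.4% of all promoters had one. The stretches below are shown because they carry the matches before the genes just described. They were read from the reference genome (RefSeq, assembly R64), run 5′ to 3′ on the strand of the gene, and have the matches in capitals. They lie at chrXI:630662-630807 (plus strand) for *PCK1*, chrV:287275-287334 (minus) for *ICL1*, chrXV:83280-83365 (minus) for *MDH2*, chrI:45377-45452 (minus) for *ACS1* and chrXIII:874608-874667 (minus) for *ADH2*.
PCK1: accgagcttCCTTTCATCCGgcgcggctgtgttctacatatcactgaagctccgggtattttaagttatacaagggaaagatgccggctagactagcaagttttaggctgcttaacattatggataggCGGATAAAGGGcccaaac
ICL1: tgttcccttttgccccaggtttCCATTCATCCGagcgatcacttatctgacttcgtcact
MDH2: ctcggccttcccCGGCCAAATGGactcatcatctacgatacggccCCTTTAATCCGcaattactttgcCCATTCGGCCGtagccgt
ACS1: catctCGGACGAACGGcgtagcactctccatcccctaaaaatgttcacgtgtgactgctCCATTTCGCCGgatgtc
ADH2: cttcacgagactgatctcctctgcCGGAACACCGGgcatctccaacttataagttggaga
*MDH2* had 3 matches within 86 bases, and *PCK1* and *ACS1* had 2 each. A match is a description of the letters and not a measured site.

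Of 14 genes for the uptake, use and formation of glycerol, 9 rose, 3 fell and 2 were not called. *STL1*, the glycerol-proton symporter, had 372 and 397 CPM in glycerol, against 12 and 10.7 CPM in YPD (log2 fold change 5.09, SE 0.21). *GUT1*, the glycerol kinase, had 715 and 790.5 CPM in glycerol, against 77.2 and 81.8 CPM in YPD (log2 fold change 3.24, SE 0.17). *GUT2*, the mitochondrial glycerol-3-phosphate dehydrogenase that follows it, had 949 and 1000 CPM in glycerol, against 48.3 and 27.7 CPM in YPD (log2 fold change 4.70, SE 0.21). The uptake transporter, the kinase and the dehydrogenase thus all rose, and their conditions did not overlap. The genes that form glycerol from dihydroxyacetone phosphate did not share a direction: *GPD1* rose by 1.79 and *GPP2* by 1.60, whereas *GPP1* changed by -1.02. *FPS1*, the glycerol export channel, had 161 and 169 CPM in glycerol and 200.3 and 200.3 CPM in YPD and was not called. *HOG1*, the kinase of the osmotic stress pathway that turns on glycerol formation, was lower (-1.01).

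The citric acid cycle and the respiratory chain rose nearly throughout. Of 20 genes of the cycle and its entry, 18 rose and 2 fell (median 2.67). Of 14 genes for NADH dehydrogenases and succinate dehydrogenase, 13 rose and none fell (median 2.85). All 13 genes for the cytochrome bc1 complex and cytochrome c (median 2.02), 8 of the 9 nuclear genes for cytochrome c oxidase (median 1.89) and all 17 genes for ATP synthase and its regulators (median 1.92) rose. *CIT1*, the mitochondrial citrate synthase, had 1933 and 2064 CPM in glycerol, against 146 and 128 CPM in YPD (log2 fold change 3.87, SE 0.15). *SDH2*, the iron-sulfur subunit of succinate dehydrogenase, had 1521 and 1523 CPM in glycerol, against 131 and 98.4 CPM in YPD (log2 fold change 3.74, SE 0.16). *NDE2*, an external NADH dehydrogenase, had 773 and 838 CPM in glycerol, against 3.99 and 3.56 CPM in YPD (log2 fold change 7.73, SE 0.27). *NDE2* rose 212-fold, whereas *NDE1*, which encodes the other external NADH dehydrogenase, rose by 0.55 on the log2 scale. *PYC2*, a pyruvate carboxylase, was among the members of the cycle list that fell (-0.85).

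Within the complexes, the core subunits moved by similar amounts. The bc1 subunits *QCR2*, *COR1*, *QCR7*, *QCR8*, *RIP1* and *CYT1* had log2 fold changes of 1.96, 1.8, 2.08, 2.02, 2.37 and 2.43. The ATP synthase subunits *ATP1*, *ATP2*, *ATP3*, *ATP4*, *ATP5* and *ATP7* had 1.74, 1.20, 1.92, 1.60, 1.52 and 2.24. The largest change in the ATP synthase list was in *STF2* and *STF1*, which stabilize the inhibited enzyme (4.63 and 3.96). *COX5A*, the aerobic form of cytochrome c oxidase subunit Va, had 538 and 549.9 CPM in glycerol, against 160.4 and 134 CPM in YPD (log2 fold change 1.89, SE 0.14, edgeR adjusted p = 3.49e-13). *COX5B*, the hypoxic form, had 22.9 and 37.7 CPM in glycerol and 23.4 and 19 CPM in YPD and was not called (log2 fold change 0.53, SE 0.28, edgeR adjusted p = 0.107), though it passed the test without glycerol replicate 1 (adjusted p = 0.0492).

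CCAAT, the core of the site of the Hap2/3/4/5 complex, was found within 250 bases before to 50 after the start codon in 15 of 17 ATP synthase genes (88.2%), 8 of 9 cytochrome c oxidase genes (88.9%), 8 of 13 bc1 and cytochrome c genes (61.5%) and 12 of 20 citric acid cycle genes (60%), against 2461 of 5617 promoters (43.8%). It was in 45.6% of the promoters of genes called higher and in 42.1% of those called lower. The stretches below hold matches before a gene of each of the 3 complexes, with CCAAT or its reverse complement ATTGG in capitals (R64), at chrVIII:209405-209505 (plus) for *COX6*, chrIV:1496708-1496748 (minus) for *QCR7* and chrXI:408155-408219 (minus) for *ATP7*.
COX6: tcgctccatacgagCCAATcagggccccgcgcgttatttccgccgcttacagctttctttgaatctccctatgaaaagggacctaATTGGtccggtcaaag
QCR7: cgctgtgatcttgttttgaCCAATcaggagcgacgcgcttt
ATP7: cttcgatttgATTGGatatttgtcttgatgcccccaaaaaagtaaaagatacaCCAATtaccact
*COX6* and *ATP7* each had a match on both strands, though the CCAAT of *COX6* lies further than 250 bases from the start codon and was not counted.

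Genes around the respiratory chain were less uniform. Of 39 genes for the assembly of the complexes and for translation of their mitochondrial subunits, 18 rose and 1 fell, and without a single library as few as 11 rose (YPD replicate 2 or glycerol replicate 1 left out). *COX20*, *CBP4* and *SHY1*, which act in the assembly of cytochrome c oxidase and bc1, rose by 2.75, 2.37 and 1.85, and *COX10*, which makes heme O, had -0.49, a call that was lost without YPD replicate 1 or glycerol replicate 2 (edgeR adjusted p = 0.28 and 0.154). Of 74 mitochondrial ribosomal genes tested, 14 (18.9%) rose, below the share over all genes, and none fell, with a median of 0.33. That count was 27 by library totals, 26 with limma, and 9 without either glycerol library. Of 37 genes for mitochondrial protein import, 4 rose and 13 fell, and the 13 became 5 by library totals, with limma or without YPD replicate 2, and 8 without glycerol replicate 2. Of 27 mitochondrial carriers, 15 rose and 8 fell. *SFC1*, the succinate-fumarate carrier, had 373 and 373 CPM in glycerol, against 0.997 and 2.37 CPM in YPD. *CRC1*, the carnitine carrier, had 1347 counts in glycerol and 3 in YPD, a ratio of 459 with a counting interval of 157 to 2228. *POR1*, the porin of the outer membrane, rose by 1.94. The 18 genes of the mitochondrial genome held 14 and 21 counts in glycerol and 6 and 4 counts in YPD. Mitochondrial transcripts were thus next to undetected in these libraries, none of the 12 that passed the filter was called, and nothing can be read from them on the mitochondrial genome.

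Peroxisomes, where yeast degrades fatty acids, also had mostly higher levels: of 48 genes, 35 rose and 2 fell (median 1.19). *POX1*, the acyl-CoA oxidase of beta-oxidation, had 432 and 464 CPM in glycerol, against 15.9 and 9.48 CPM in YPD. *FOX2*, the multifunctional enzyme of the next steps, had 657 and 732 CPM in glycerol, against 22.9 and 29.2 CPM in YPD, and *POT1*, the thiolase, had 579.9 and 699 CPM in glycerol, against 9.97 and 22.9 CPM in YPD. The carnitine acetyltransferases *YAT1*, *YAT2* and *CAT2*, which with *CRC1* pass acetyl units into mitochondria, rose by 5.53, 4.72 and 5.52. No member of beta-oxidation or of the carnitine shuttle named here rose less than 26.3-fold. The members that fell were *FAA4*, an acyl-CoA synthetase (-1.11), and *PEX31*, a peroxisome size regulator (-0.76, not called without glycerol replicate 2, edgeR adjusted p = 0.0665).

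Of 20 genes tested of hexose transporters and their sensors, 13 rose and 5 fell. *HXT5*, the transporter of slow-growing cells, had 2610.1 and 3319 CPM in glycerol, against 16.9 and 15.4 CPM in YPD (log2 fold change 7.52, SE 0.26). *HXT4*, a high-affinity transporter, had 79.6 and 31.1 CPM in glycerol, against 693 and 313 CPM in YPD (log2 fold change -3.18, SE 0.29). *STD1*, a regulator of the glucose sensing path, had 7.77 and 3.55 CPM in glycerol, against 41.4 and 53.3 CPM in YPD, whereas its paralog *MTH1* rose by 2.14. By FPKM, *HXT5* was the highest of the transporters in both glycerol libraries and *HXT3* in both YPD libraries. Several of the 13 that rose lie near the floor, such as *HXT10* with 19.2 and 31.1 CPM in glycerol and 0.997 and 0.79 CPM in YPD, and the count was 7 with a minimum mean of 20 CPM, 8 without YPD replicate 2 and 7 without glycerol replicate 2. *HXT6* and its near-identical copy *HXT7* share reads, so that their values are uncertain.

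Glycolysis was split by isoform. Of 29 genes, 9 rose and 16 fell (median -0.32), and the enzymes shared with gluconeogenesis and those of the lower path to ethanol were among those that fell. *ADH1*, the alcohol dehydrogenase that makes ethanol, had 3536 and 3229.8 CPM in glycerol, against 14608 and 17737 CPM in YPD (log2 fold change -2.26, SE 0.12). *PDC1*, the main pyruvate decarboxylase, had 10436 and 10901 CPM in glycerol, against 19773 and 27199 CPM in YPD (log2 fold change -1.14, SE 0.13). *CDC19*, the main pyruvate kinase, had 1442 and 1495 CPM in glycerol, against 4170.4 and 4365 CPM in YPD (log2 fold change -1.54, SE 0.12). These 3 genes kept high levels in glycerol although they fell. The genes of the list took 10.8% and 11% of all counts in glycerol, against 12.9% and 14.8% in YPD.

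Several members that rose were minor or glucose-repressed forms of enzymes whose main form fell. Pairs of isoforms are given as FPKM, and pairs outside the lists of paths were added after their values were seen. *GLK1*, the glucokinase, had 3169 and 3885 FPKM in glycerol, against 209 and 144 FPKM in YPD, and *HXK2*, the hexokinase of glucose growth, had 392 and 266 FPKM in glycerol, against 1149 and 1135 FPKM in YPD. *ADH2* had 24462 and 26831 FPKM in glycerol, against 13.9 and 12.5 FPKM in YPD, and *ADH1* had 3647 and 3236 FPKM in glycerol, against 13575 and 15166 FPKM in YPD. The enolase gene *ENO1* had 5601 and 6326 FPKM in glycerol, against 1097 and 977 FPKM in YPD, and *ENO2* had 5339 and 4653 FPKM in glycerol, against 16902 and 20889.5 FPKM in YPD. For these 3 pairs, the form with the higher level in both YPD libraries was the lower one in both glycerol libraries. The pyruvate carboxylases also changed order: *PYC1* had 338 and 282 FPKM in glycerol, against 24.4 and 15.6 FPKM in YPD, and *PYC2* had 76.3 and 76.9 FPKM in glycerol, against 123 and 119.8 FPKM in YPD. *HXK1*, the other hexokinase, rose by 3.54 on the log2 scale. *PYK2*, which encodes a pyruvate kinase that needs no fructose bisphosphate, rose but stayed below *CDC19*, at 77.3 and 89.4 FPKM beside 1037 and 1043 FPKM in glycerol. *TDH1* rose by 4.66 and *TDH2* fell by 0.90 on the log2 scale, but *TDH2* remained higher, at 3584 and 3223 FPKM beside 1749 and 2116 FPKM for *TDH1* in glycerol. Near-identical copies such as *ENO1* and *ENO2*, *ADH1* and *ADH2*, *PYC1* and *PYC2*, and *TDH2* and *TDH3* may share reads, depending on how the reads were counted.

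The same pattern was found outside glycolysis. In the pentose phosphate path, *SOL4*, *GND2*, *TKL2* and *NQM1* had log2 fold changes of 6.04, 6.73, 6.54 and 8.49, and their paralogs *SOL3*, *GND1*, *TKL1* and *TAL1* had -1.32, -2.45, -2.25 and -0.31. The call of *TAL1* was lost without YPD replicate 1, YPD replicate 2 or glycerol replicate 2 (edgeR adjusted p = 0.0748, 0.068 and 0.108). The first 4 genes rose between 66-fold and 360.2-fold, while *SOL3*, *GND1* and *TKL1* fell. *MPC3*, the subunit of the mitochondrial pyruvate carrier used on non-fermentable carbon, had 985 and 1191 FPKM in glycerol, against 2.2 and 1.6 FPKM in YPD, and *MPC2*, used on fermentable carbon, had 389 and 341 FPKM in glycerol, against 638 and 662 FPKM in YPD. *AAC1*, an ADP/ATP carrier of aerobic growth, had 457 and 460.1 FPKM in glycerol, against 26.6 and 26.6 FPKM in YPD, and *AAC3*, the anaerobic one, had 5.3 and 1 FPKM in glycerol, against 37.8 and 38.7 FPKM in YPD. The phosphoglucomutase gene *PGM2* had 299 and 341 FPKM in glycerol, against 15.3 and 14.3 FPKM in YPD, and *PGM1* had 47 and 41.9 FPKM in glycerol, against 138 and 129.9 FPKM in YPD. In each of these 3 pairs, the order of the members was reversed between the conditions in every library. *HEF3*, which encodes translation elongation factor 3, had 159 and 149.9 FPKM in glycerol, against 2.2 and 2.6 FPKM in YPD, and its main form *YEF3* had 586 and 368 FPKM in glycerol, against 3155 and 3256 FPKM in YPD, so that *HEF3* rose but stayed below *YEF3*. Likewise *PMA2*, a proton pump of the plasma membrane, had 429 and 549 FPKM in glycerol, against 12.1 and 7.6 FPKM in YPD, and *PMA1*, the main pump, had 1626 and 1402 FPKM in glycerol, against 3987 and 3705 FPKM in YPD.

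**Figure D3:**
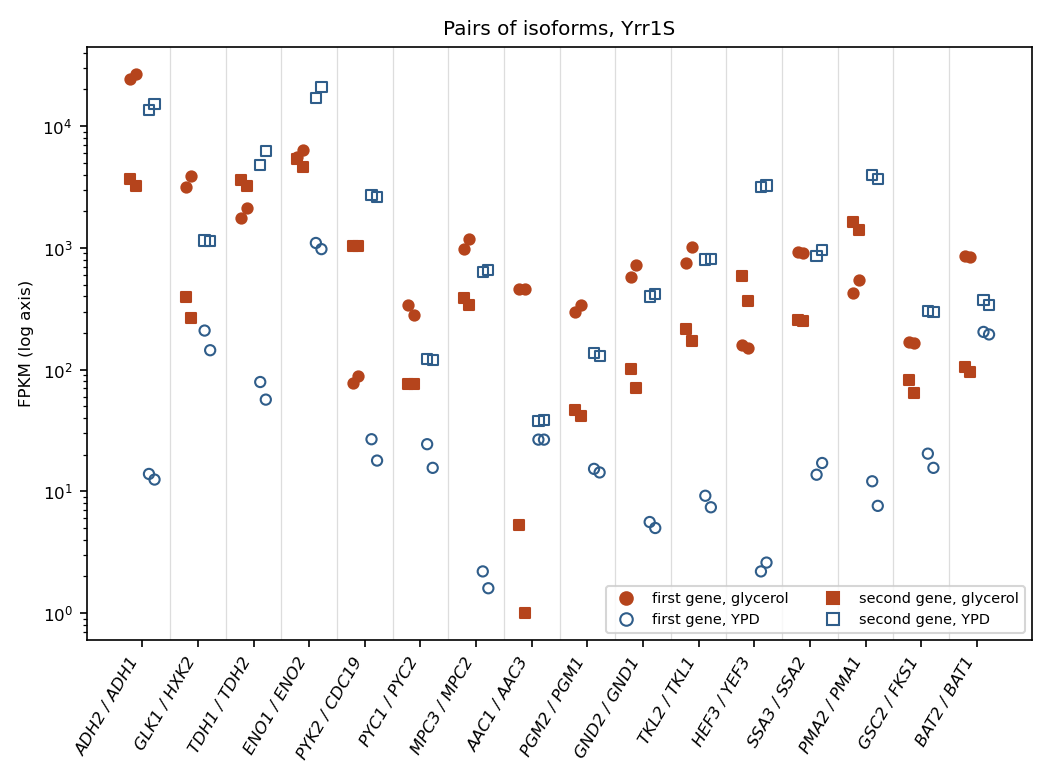
FPKM (log axis) of both members of 16 pairs of isoforms, 1 point per library. Filled points are the 2 glycerol libraries and open points the 2 YPD libraries, and circles and squares are the first-named and second-named gene of the pair. In YPD the first-named gene lies below the second in each pair, and in glycerol it lies above it in each pair but those of *PYK2*, *TDH1*, *HEF3* and *PMA2*. Pairs were chosen with results of these data known, so that this holds for the pairs shown only. Among other pairs, *POR1* and *LEU4* lay above *POR2* and *LEU9* in both media. *PDC6*, *GPP2* and *PHO89* stayed below *PDC1*, *GPP1* and *PHO84* in glycerol.

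The kinase gene *SNF1* was not called, with 103 and 103 CPM in glycerol and 115 and 117 CPM in YPD (log2 fold change -0.18, edgeR adjusted p = 0.385). Of 11 genes for Snf1 subunits, its kinases and its phosphatase, 2 rose and 2 fell: *SIP2*, a beta subunit, had 103 and 94.5 CPM in glycerol, against 10.5 and 11.9 CPM in YPD, and *REG2*, a phosphatase subunit, rose by 2.98. *SNF4*, the gamma subunit, and *TOS3*, an upstream kinase, had log2 fold changes of -0.55 and -0.85. *SNF4* was not called without YPD replicate 2 (edgeR adjusted p = 0.129), nor *TOS3* without YPD replicate 1, YPD replicate 2 or glycerol replicate 2 (edgeR adjusted p = 0.0817, 0.117 and 0.372). Of 25 genes for transcription factors of carbon metabolism, 13 rose and 2 fell. *SIP4*, an activator that binds the CSRE, had 206 and 225 CPM in glycerol, against 2.99 and 4.74 CPM in YPD, and *CAT8*, which also binds it, had 119.8 and 92.8 CPM in glycerol, against 29.9 and 40.7 CPM in YPD. *ADR1*, the activator of *ADH2* and of peroxisomal genes, had 434 and 419 CPM in glycerol, against 26.9 and 19.4 CPM in YPD (log2 fold change 4.22, SE 0.20). *USV1* and *GSM1*, zinc finger and zinc cluster factors of non-fermentable growth, rose by 4.23 and 3.03, and the glucose repressor *MIG1* by 1.38. *TUP1* and *CYC8*, which form the general corepressor, fell by 0.69 and 0.83 on the log2 scale. Messenger RNA of the activators *CAT8*, *ADR1* and *SIP4* was thus 2.98-fold, 18.6-fold and 53.7-fold higher, while that of the kinase was not detectably different.

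Of 11 genes of the GID ubiquitin ligase, known for the removal of gluconeogenic enzymes when glucose returns, 10 rose and none fell (median 1.52). *GID11*, a substrate receptor, had 202 and 239 CPM in glycerol, against 4.98 and 7.11 CPM in YPD, and *UBC8*, its ubiquitin-conjugating enzyme, rose by 3.27. Of 28 genes tested of a mixed list of glucose-repressed, stationary-phase and stress genes, 26 rose and none fell (median 4.49). They include *TMA10* and *SPG4* (8.78 and 8.61) and, with smaller changes, the maltose transporter *MAL11* (1.79) and *GAL4*, the activator of the galactose genes (1.22). The list also holds *GRE1*, *SIP18* and *SPG1*, given above, and *MPC3* and *REG2*, which are counted in other lists too.

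Stress genes of Msn2 and Msn4 also rose: of 26 genes, 23 rose and 2 fell (median 4.00). *HSP12*, a small membrane-binding heat shock protein, had 3769.9 and 5196 CPM in glycerol, against 3.49 and 6.72 CPM in YPD (log2 fold change 9.72, SE 0.35, edgeR adjusted p = 4.83e-20). *DDR2*, a multistress gene, had 3823 and 4528 CPM in glycerol, against 5.48 and 6.32 CPM in YPD (log2 fold change 9.44, SE 0.27). *CTT1*, the cytosolic catalase, had 573 and 782 CPM in glycerol, against 16.9 and 11.1 CPM in YPD (log2 fold change 5.62, SE 0.23). In all 3, glycerol replicate 2 had the highest level and the YPD libraries stood below 20 CPM. The genes of the regulators themselves moved little: *MSN2* had 98.8 and 96.3 CPM in glycerol and 85.2 and 67.2 CPM in YPD and was not called, and *MSN4* had a log2 fold change of -0.63, which was not called without YPD replicate 1 or glycerol replicate 2 (edgeR adjusted p = 0.218 and 0.0528). *RPI1*, the other member that fell, had -1.30.

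Chaperones and antioxidant genes were split by type. Of 32 chaperone genes, 22 rose and 6 fell. *HSP26*, the small heat shock protein that holds unfolded proteins, had 2847 and 3319 CPM in glycerol, against 12 and 7.51 CPM in YPD. The stress-induced Hsp70 genes *SSA3* and *SSA4* rose by 5.68 and 3.98, and *HSP82*, *HSP42* and *HSP78* by 3.69, 4.61 and 3.91. The Hsp70 genes of growing cells went the other way: *SSA2* by -2.04, and *SSB1* and *SSB2*, which act on the ribosome, by -2.98 and -1.96. The *SSA* and the *SSB* genes are close copies and may share reads. Of 36 antioxidant genes, 23 rose and 6 fell. *SOD2*, the mitochondrial superoxide dismutase, had 985 and 1140.2 CPM in glycerol, against 205 and 186 CPM in YPD (log2 fold change 2.44, SE 0.14). *CTA1*, the peroxisomal catalase, and *PRX1*, the mitochondrial peroxiredoxin, rose by 3.99 and 4.48. *TRR1*, the cytosolic thioredoxin reductase, fell by 1.23.

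Of 16 glycogen genes, 14 rose and none fell (median 2.36), and of 10 trehalose genes, 8 rose and 1 fell (median 1.99). *GPH1*, the glycogen phosphorylase that degrades glycogen, had 389 and 543 CPM in glycerol, against 27.4 and 20.9 CPM in YPD. *GSY2*, the glycogen synthase that makes it, had 489 and 556 CPM in glycerol, against 94.7 and 55.3 CPM in YPD. Genes for both synthesis and breakdown rose, also for trehalose, but by unequal amounts. *TPS1* and *TSL1* of trehalose synthesis rose by 1.93 and 3.87, and the trehalases *ATH1* and *NTH1* by 4.46 and 2.22. *TPS3* of trehalose synthesis was not called (-0.07), and *PGM1* was the trehalose member that fell (-1.78). For glycogen, the synthase gene *GSY1* rose by 1.36, beside 4.28 for *GPH1*.

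The stress response element (STRE), searched as AGGGG on both strands, was found from 250 bases before to 50 after the start codon in 15 of 26 Msn2/4 stress genes (57.7%), 8 of 16 glycogen genes (50%), 227 of 529 genes called higher at least 4-fold (42.9%), 33.2% of genes called higher and 13.8% of genes called lower, against 21.8% of all promoters. The stretches below are those with clusters of matches before the stress genes just described, at chrVI:106816-106891 (plus) for *HSP12*, chrXV:231921-232005 (minus) for *DDR2* and chrVII:654244-654283 (plus) for *CTT1* (R64), with AGGGG or CCCCT in capitals. The stretch of *DDR2* lies within the window counted, and those of *HSP12* and *CTT1* lie further from the start codon, within 500 bases of it, so that they are not the matches counted.
HSP12: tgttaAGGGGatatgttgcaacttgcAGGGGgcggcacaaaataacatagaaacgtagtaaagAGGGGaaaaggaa
DDR2: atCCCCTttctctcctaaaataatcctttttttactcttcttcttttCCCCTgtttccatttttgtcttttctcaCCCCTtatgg
CTT1: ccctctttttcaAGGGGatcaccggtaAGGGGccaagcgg
*HSP12* and *DDR2* had 3 matches each within 85 bases, and *CTT1* had 2 within 40.

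Ribosomes and translation made up the largest group that fell. Of 134 genes tested for cytosolic ribosomal proteins, 129 fell, 1 rose and 4 were not called (median -1.89). Of 138 genes of ribosome biogenesis, 134 fell and none rose (median -1.67). Of 28 genes for RNA polymerases I and III, 23 fell and none rose (median -1.40), all 20 tRNA synthetase genes fell (median -1.73), and of 40 translation factors, 38 fell and 1, *HEF3*, rose (median -1.48). Ribosomal protein genes took 5.79% and 5.08% of all counts in glycerol, against 17.8% and 18.7% in YPD. *RPL9A*, a protein of the large subunit, had 159 and 115 CPM in glycerol, against 1216 and 1418 CPM in YPD (log2 fold change -3.27, SE 0.16). *NOP1*, the methyltransferase of ribosomal RNA, had 357 and 243 CPM in glycerol, against 1902 and 2277 CPM in YPD (log2 fold change -2.80, SE 0.15). *DBP2* had 70 and 32 CPM in glycerol, against 989 and 992 CPM in YPD (log2 fold change -4.28, SE 0.21). Glycerol replicate 2 was the lower of the glycerol libraries for 106 of the 138 biogenesis genes. *RPA190* and *RPA135*, the largest subunits of RNA polymerase I, fell by 2.62 and 2.65. The member that rose was *RPL15B*, the minor copy of its pair, with 55.8 and 35.1 CPM in glycerol and 28.9 and 24.5 CPM in YPD, and it was not called without YPD replicate 2 or glycerol replicate 1 (edgeR adjusted p = 0.102 and 0.464). Duplicated ribosomal protein genes are close copies, so that the split of reads within a pair is uncertain.

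PAC, searched as GATGAG, and RRPE, searched as AAAATTT, are elements of ribosome biogenesis promoters. From 250 bases before to 50 after the start codon, PAC was in 126 of 138 biogenesis genes (91.3%) and in 19 of 28 RNA polymerase genes (67.9%), against 19.9% of all promoters, 28.2% of genes called lower and 15.4% of genes called higher. RRPE was in 93.5% of biogenesis genes and 80% of tRNA synthetase genes, against 24% of all promoters, 38.9% of genes called lower and 15.7% of genes called higher. The stretches below show both elements side by side before 3 biogenesis genes, at chrXIV:413419-413509 (plus) for *DBP2*, chrVII:807806-807871 (minus) for *NSR1* and chrVII:982204-982238 (minus) for *SDA1* (R64), with matches of either element on either strand in capitals.
DBP2: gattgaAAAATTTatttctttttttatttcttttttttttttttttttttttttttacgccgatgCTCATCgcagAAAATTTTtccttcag
NSR1: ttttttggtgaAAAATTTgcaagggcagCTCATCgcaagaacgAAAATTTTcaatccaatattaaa
SDA1: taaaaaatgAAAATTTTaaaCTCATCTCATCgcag
*NSR1*, a nucleolar protein, and *SDA1*, needed for export of the large subunit, had log2 fold changes of -1.88 and -2.10.

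Of 12 genes of de novo purine synthesis, 11 fell and 1 rose (median -2.86). *ADE17*, which encodes the bifunctional enzyme of the last steps to IMP, had 154 and 161 CPM in glycerol, against 3386 and 4507 CPM in YPD (log2 fold change -4.65, SE 0.18, edgeR adjusted p = 1.61e-19). *ADE16*, its isozyme, had 435 and 463 CPM in glycerol and 341 and 343 CPM in YPD (log2 fold change 0.39, SE 0.13), a call that was lost without any 1 of the 4 libraries (edgeR adjusted p = 0.0507 to 0.0967). *ADE1*, *ADE4*, *ADE6*, *ADE13* and *ADE57* of the same path had log2 fold changes of -3.24, -3.04, -3.29, -3.36 and -3.52. By FPKM, *ADE16* was the higher of the pair there and *ADE17* in YPD. Of 17 genes of one-carbon and glycine metabolism, 15 fell and 1 rose (median -1.52). *SHM2*, the cytosolic serine hydroxymethyltransferase, had 392 and 347 CPM in glycerol, against 3752 and 5638 CPM in YPD (log2 fold change -3.67, SE 0.16), and *MTD1* and *MIS1*, which oxidize and make tetrahydrofolate one-carbon units, fell by 2.51 and 2.41.

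Of 19 genes of purine salvage and guanine nucleotide synthesis, 11 fell and 2 rose. *AAH1*, the adenine deaminase, had 65.4 and 31.1 CPM in glycerol, against 369.7 and 369.8 CPM in YPD (log2 fold change -2.94, SE 0.20). *IMD4*, an IMP dehydrogenase that commits IMP to GMP, had 124 and 55.5 CPM in glycerol, against 1279 and 1352 CPM in YPD, and its isozyme *IMD3* had 255 and 189 CPM in glycerol, against 948 and 994 CPM in YPD. *IMD2*, another IMP dehydrogenase, and *GUA1*, the GMP synthetase, fell by 3.94 and 2.70. All steps from IMP to GMP were thus lower, with glycerol replicate 2 the lowest for *AAH1*, *IMD4* and *GUA1*. The genes that rose were *GUD1*, the guanine deaminase (2.60), and *PHM8*, a nucleotide phosphatase (1.94). *IMD* genes are close copies and may share reads.

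The site of Bas1 and Gcn4, searched as TGACTC on both strands, was found from 250 bases before to 50 after the start codon in 7 of 12 purine genes (58.3%) and in 11 of 17 one-carbon genes (64.7%), against 8.22% of all promoters. It was as frequent before genes called higher (8.88%) as before genes called lower (8.78%). The stretches below lie before *ADE17* (chrXIII:509440-509600, minus), *ADE1* (chrI:169135-169174, plus) and *SHM2* (chrXII:259617-259686, minus) in R64, with TGACTC or GAGTCA in capitals.
ADE17: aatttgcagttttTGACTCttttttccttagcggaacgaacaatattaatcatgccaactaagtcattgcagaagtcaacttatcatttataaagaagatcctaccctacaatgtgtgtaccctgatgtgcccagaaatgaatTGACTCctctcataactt
ADE1: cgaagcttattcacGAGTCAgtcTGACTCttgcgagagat
SHM2: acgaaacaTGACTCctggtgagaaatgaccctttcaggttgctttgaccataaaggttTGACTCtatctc
Each of the 3 stretches held 2 matches, on both strands for *ADE1*, and the first match of *ADE17* and of *SHM2* lies further than 250 bases from the start codon and was not counted.

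Of 29 genes of sulfur metabolism, 9 rose and 11 fell, and the synthetases of S-adenosylmethionine were among the genes that fell most. *SAM1* had 41.6 and 38.6 CPM in glycerol, against 1450.4 and 1543 CPM in YPD (log2 fold change -5.22, SE 0.19), and *SAM2*, its close copy, had -2.43. *SAH1*, which clears S-adenosylhomocysteine, and *CYS3*, which makes cysteine, fell by 2.13 and 2.68, and *STR3*, which works in the reverse direction, rose by 2.45. Of 45 other amino acid synthesis genes, 29 fell and 9 rose (median -0.82), and the 9 became 5 without glycerol replicate 1. *HIS4* and *ARO2* of histidine and aromatic amino acid synthesis fell by 2.95 and 1.94. In the branched-chain path *LEU4*, the main isopropylmalate synthase, had 741 and 731 FPKM in glycerol, against 234 and 214 FPKM in YPD, and *LEU9*, the minor one, had 23.4 and 16.4 FPKM in glycerol, against 169 and 168 FPKM in YPD. *BAT2*, the cytosolic aminotransferase, had 864 and 846 FPKM in glycerol, against 204 and 194 FPKM in YPD, and *BAT1*, the mitochondrial one, had 105 and 96.5 FPKM in glycerol, against 374 and 337 FPKM in YPD, so that the order of this pair was reversed, whereas *LEU4* was the higher of its pair in all 4 libraries.

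Genes for the use of nitrogen sources did not share a direction. Of 19 arginine and proline genes, 7 rose and 2 fell (median 0.21), and of 19 other nitrogen genes, 9 rose and 5 fell (median 0.90), against 29.1% higher and 28.6% lower over all genes. *PUT4*, the proline permease, had 1046 and 1184 CPM in glycerol, against 8.47 and 9.88 CPM in YPD (log2 fold change 6.91, SE 0.23), and *PUT1*, the proline oxidase, rose by 5.30. *CAR2*, the ornithine transaminase, had 788 and 594 CPM in glycerol, against 23.9 and 49.8 CPM in YPD, and *CPA1* of arginine synthesis rose by 2.48. *GDH2*, the glutamate dehydrogenase that releases ammonium, had 1417 and 1429 CPM in glycerol, against 111 and 101 CPM in YPD, and *GAP1*, the general amino acid permease, rose by 3.02. The ammonium-fixing enzymes split: *GDH3*, the form of non-fermentable growth, rose by 3.44, and *GDH1*, the form of glucose growth, fell by 1.20. *ASN1* and *ASN2*, the asparagine synthetases, fell by 1.88 and 2.05.

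Of 20 phosphate genes, 14 fell and 4 rose. *PHO5*, the secreted acid phosphatase, had 112 and 76.3 CPM in glycerol, against 814 and 862 CPM in YPD (log2 fold change -3.15, SE 0.18), and its relatives *PHO11* and *PHO12*, which are near-identical, fell by 4.06 and 4.29. The sodium-phosphate transporter *PHO89* had 1327 and 1229 CPM in glycerol, against 264 and 281 CPM in YPD, whereas *VTC3* and *VTC4* of polyphosphate synthesis fell by 2.23 and 1.54. Of 26 iron genes tested, 19 rose and 1 fell (median 0.83). *SIT1*, a siderophore transporter, had 583 and 901 CPM in glycerol, against 39.9 and 37.1 CPM in YPD (log2 fold change 4.27, SE 0.21). *FIT2*, a cell wall mannoprotein of siderophore uptake, had 209 and 527 CPM in glycerol, against 16.4 and 15.4 CPM in YPD. Glycerol replicate 2 was the higher for both, by over 2 times for *FIT2*. *TIS11*, which degrades messages of iron-using proteins, rose by 3.94, and *FET4*, the low-affinity iron transporter, fell by 1.40.

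Of 25 heme and hypoxia genes, 5 rose and 10 fell, and 9 rose by library totals or with limma. The hypoxic genes *TIR1*, a cell wall mannoprotein, *ANB1*, a translation factor, and *HEM13*, of heme synthesis, fell by 4.24, 3.52 and 2.37, and *ROX1*, the repressor of hypoxic genes, rose by 2.05. Other hypoxic genes went the other way. *DAN4*, a cell wall mannoprotein gene, had 71.8 and 85.2 CPM in glycerol, against 22.4 and 26.1 CPM in YPD, and *CYC7*, the hypoxic form of cytochrome c, had 22 and 24 counts in glycerol, against 1 and 5 counts in YPD. *DAN1*, also a mannoprotein gene, rose at a low level, with 17 and 5 counts in glycerol and 0 in both YPD libraries, at least 7.5-fold higher against 3 counts over the YPD libraries. Of 29 ergosterol genes, 19 fell and 1, *ERG28*, rose (median -0.41). Of 20 lipid genes, 3 rose and 8 fell. *OPI3*, a methyltransferase of phosphatidylcholine synthesis, had 849 and 939 CPM in glycerol, against 113 and 127 CPM in YPD, and *INO1*, the inositol-3-phosphate synthase, rose by 3.02. *FAS1* and *FAS2*, the fatty acid synthase subunits, and *ELO2* and *ELO3*, which elongate fatty acids, fell by 1.05, 1.68, 1.89 and 2.42.

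The strain is MATa, and the a-specific and pheromone response genes fell: of 14 genes, 12 fell and 1 rose (median -1.26). *STE2*, the alpha factor receptor, had 87.4 and 74.1 CPM in glycerol, against 1668 and 1469.8 CPM in YPD (log2 fold change -4.28, SE 0.15). *MFA2*, an a-factor gene, had 48.9 and 43.1 CPM in glycerol, against 765 and 656 CPM in YPD, and *BAR1*, the protease that degrades alpha factor, had 34.8 and 42.2 CPM in glycerol, against 332 and 290 CPM in YPD. *STE3*, the a-factor receptor of MATalpha cells, was at a low level but higher, with 23.8 and 20.4 CPM in glycerol and 2.49 and 2.37 CPM in YPD (log2 fold change 3.16, edgeR adjusted p = 6.46e-07). The other alpha markers that passed the filter, *SAG1* and *MF(ALPHA)2*, were not called. *ASG7* stood against its list with a log2 fold change of 0.97, which was not called without YPD replicate 2 or glycerol replicate 2 (edgeR adjusted p = 0.155 and 0.525). By FPKM, *STE2* stood above *STE3* in all 4 libraries. Over the 7 a-cell markers, the summed level was 312 and 308 CPM in glycerol, against 3607 and 3085 CPM in YPD, the 3 alpha-cell markers summed to 96 and 102 CPM in glycerol and 67.3 and 69.1 CPM in YPD, and their part in the other changes was not tested.

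Of 28 genes of cell wall and daughter cells, 6 rose and 13 fell. *PIR3*, a cell wall protein, had 831 and 1012 CPM in glycerol, against 26.4 and 17.4 CPM in YPD, and *SPI1*, a cell wall protein of stationary phase, had 659 and 655 CPM in glycerol, against 17.9 and 12.6 CPM in YPD. *UTR2* had 59 and 46.6 CPM in glycerol, against 1258 and 1225 CPM in YPD (log2 fold change -4.55, SE 0.15). The glucan synthases changed order, with *GSC2* at 168 and 164 FPKM in glycerol, against 20.4 and 15.6 FPKM in YPD, and *FKS1* at 82.4 and 63.7 FPKM in glycerol, against 302 and 296 FPKM in YPD. The daughter-specific genes *DSE2* and *CTS1*, which separate daughter from mother, fell by 1.67 and 1.17. Of 23 cell cycle genes, 10 fell and 2 rose, but only 5 fell without YPD replicate 1 or glycerol replicate 2 and by library totals. *CLB2*, the mitotic cyclin, and *FAR1*, the inhibitor of the G1 cyclin kinase, fell by 1.21 and 1.90. Of 11 histone genes, 6 fell and 1 rose, with *HTA2* and *HTB2* lowest (-1.49 and -1.23). Of 36 replication genes, 5 rose and 5 fell, and 3 rose without any one of the 4 libraries. *RNR3*, the damage-inducible subunit of ribonucleotide reductase, had 93.3 and 120.3 CPM in glycerol, against 9.97 and 17.4 CPM in YPD (log2 fold change 2.93, SE 0.25), and *RNR2* rose by 1.33.

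Most autophagy genes rose, and most proteasome genes did not pass the test. Of 32 autophagy genes tested, 27 rose and 1 fell (median 1.49). *ATG39*, a receptor for autophagy of the nuclear envelope, had 193 and 179.8 CPM in glycerol, against 2.49 and 1.98 CPM in YPD, and *ATG8*, the ubiquitin-like protein of the autophagosome, had 61.3 and 76.3 CPM in glycerol, against 4.48 and 5.53 CPM in YPD. *ATG33*, needed for mitophagy, rose by 3.12. Of 21 vacuole genes, 8 rose and 12 fell. The proteases *PRB1*, *PEP4* and *PRC1* rose by 2.84, 2.02 and 2.0, and *PAI3*, the inhibitor of Pep4, had 277 and 418 CPM in glycerol, against 3.99 and 0.79 CPM in YPD. The genes that fell included subunits of the vacuolar proton pump such as *VMA5*, *VMA6* and *VMA2* (-1.49, -1.43 and -0.99). Of 33 proteasome genes, 7 fell by at most 0.62 on the log2 scale and 1, their activator *RPN4*, rose (1.39), and the 7 became 2 by library totals or with limma, 3 without YPD replicate 1 and 11 without glycerol replicate 1.

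**Figure D4:**
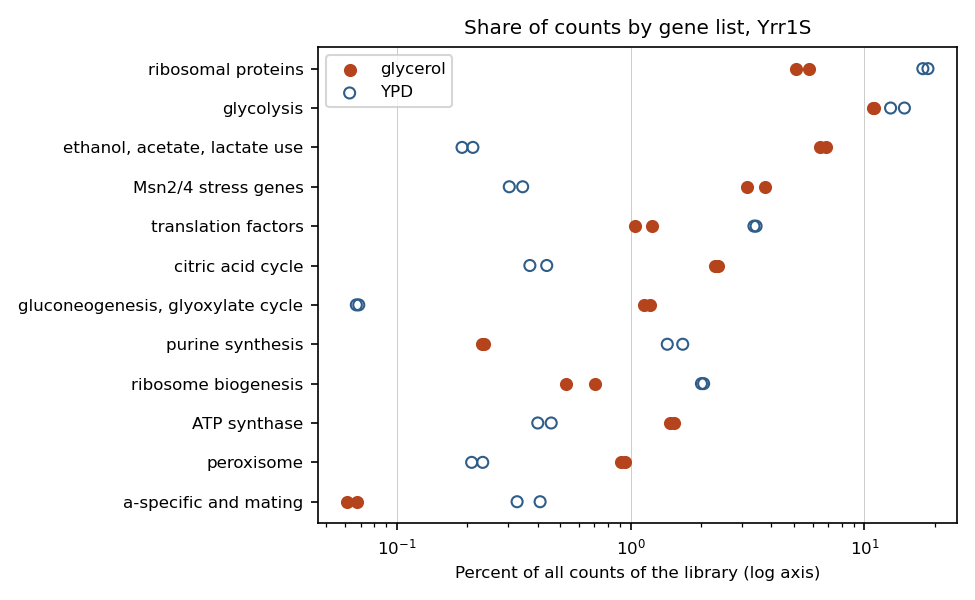
Percent of all counts (log axis) held by each of 12 gene lists in each library, with filled points for the 2 glycerol libraries and open points for the 2 YPD libraries. The lists of acetate and ethanol use, gluconeogenesis, the citric acid cycle and Msn2/4 stress genes take more of the counts in glycerol, and ribosomal proteins, ribosome biogenesis, translation and purine synthesis take less.

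*YRR1*, here on the plasmid, had 214 and 253 CPM in glycerol, against 117 and 122 CPM in YPD (log2 fold change 0.97, SE 0.16, edgeR adjusted p = 5.47e-06), so both glycerol libraries were higher than both YPD libraries. Of 20 genes of the Yrr1 and Pdr network, 6 rose and 5 fell. *SNQ2*, the drug transporter known as a Yrr1 target, had 234 and 219 CPM in glycerol and 316 and 309 CPM in YPD (log2 fold change -0.46, SE 0.14, edgeR adjusted p = 0.0066), and the call was lost without glycerol replicate 2 (adjusted p = 0.0517) and by library totals (0.114). *SNG1*, another known Yrr1 target, rose by 0.94. *PDR5*, the main drug efflux pump, had 300.5 and 259.6 CPM in glycerol, against 919 and 925 CPM in YPD, whereas the related *PDR10* had 277 and 296 CPM in glycerol, against 55.3 and 50.2 CPM in YPD. *PDR12*, the exporter of weak acids, and *TPO1*, the polyamine transporter, fell by 1.88 and 1.75. *PDR1*, which encodes the main regulator of drug efflux, was not called (0.22).

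The glycerol response with the other alleles was measured in libraries of its own, 2 in glycerol and 2 in YPD for each allele, all fitted in the same model. With Yrr1Y, 1645 genes rose and 1559 fell in glycerol (55.6% of those tested), and the difference from the response with Yrr1S was called for 36 of 5766 genes (0.624%), 21 (0.364%) with a higher and 15 (0.26%) with a lower change. That count rests on single libraries: it was 93 without Yrr1S glycerol replicate 1 and between 6 and 17 without Yrr1S YPD replicate 2, Yrr1S glycerol replicate 2, Yrr1Y YPD replicate 2 or either Yrr1Y glycerol library. *SIT1* changed by 2.47 with Yrr1Y, against 4.27 with Yrr1S (difference -1.8, SE 0.29, edgeR adjusted p = 0.00117). *LSC2*, the beta subunit of succinyl-CoA ligase, changed by 2.31 with Yrr1Y, against 3.64 with Yrr1S (difference -1.34, SE 0.22, edgeR adjusted p = 0.00117). *CHA1*, the serine and threonine deaminase, changed by 2.0 with Yrr1Y, against 0.60 with Yrr1S (difference 1.39, SE 0.20, edgeR adjusted p = 0.000642). These 3 differences were called in each of the 8 fits that left out 1 library. *AAH1* fell less with Yrr1Y, by 1.42, against 2.94 with Yrr1S (difference 1.52, SE 0.27, edgeR adjusted p = 0.00316), and it lost the call in 1 of the 8 fits (adjusted p = 0.0662). The differences for *JEN1* (-1.92), *ALD4* (-1.08), *HXT1* (1.99) and *NSR1* (1.19) were lost in 5 or 6 of the 8.

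With Yrr1IE, 1915 genes rose and 1863 fell in glycerol (65.5%), and the difference from Yrr1S was called for 1810 genes (31.4%), 693 (12%) with a higher and 1117 (19.4%) with a lower change. By library totals the split was 465 and 1449. The Yrr1IE libraries hold at most 2 counts of *SNF1*, against 225 to 297 counts in the 4 Yrr1S libraries compared here. The Yrr1IE cultures thus also differ in a gene that glucose derepression needs. *YRR1* itself had 41.4 and 49.9 CPM in YPD with Yrr1IE, against 117 and 122 CPM with Yrr1S. In glycerol *YRR1* had 138 and 97.8 CPM with Yrr1IE, against 214 and 253 CPM with Yrr1S. The part of *SNF1* and of the *YRR1* level in the differences was not tested. *ADH2* changed by 1.05 with Yrr1IE, against 10.73 with Yrr1S (difference -9.68, SE 0.45, edgeR adjusted p = 1.56e-15). *PCK1* changed by 2.81 with Yrr1IE, against 8.85 with Yrr1S (difference -6.05, SE 0.38, edgeR adjusted p = 4.13e-13). *HSP26* changed by 2.45 with Yrr1IE, against 8.33 with Yrr1S (difference -5.88, SE 0.34, edgeR adjusted p = 1.02e-13). Its glycerol level was 1697 and 2191 CPM with Yrr1IE, against 2847 and 3319 CPM with Yrr1S. In YPD *HSP26* had 377 and 336 CPM with Yrr1IE, against 12 and 7.51 CPM with Yrr1S, so most of the difference lay there. By contrast, in glycerol *ADH2* had 79.8 and 55.6 CPM and *PCK1* 91.6 and 74.1 CPM with Yrr1IE. *ADY2*, *SFC1*, *MLS1*, *FBP1* and *SIT1* also had a smaller or opposite change, with differences of -8.44, -6.71, -5.54, -5.37 and -5.05. Genes that fell with Yrr1S differed in both directions. The difference was called negative for 113 of 134 ribosomal protein genes and 94 of 138 biogenesis genes, and positive for the 3 genes given next. *ADH1* had 0.85 with Yrr1IE, against -2.26 with Yrr1S, and *ENO2* had 0.25 with Yrr1IE, against -2.12 with Yrr1S. *ADE17* had -0.35 with Yrr1IE, against -4.65 with Yrr1S. In glycerol *ADE17* had 164 and 116 CPM with Yrr1IE and 154 and 161 CPM with Yrr1S. In YPD it had 194 and 160 CPM with Yrr1IE, against 3386 and 4507 CPM with Yrr1S, so its difference lay there.

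Over the lists, the median log2 change with Yrr1IE, with Yrr1Y and with Yrr1S was 1.64, 3.75 and 4.66 for gluconeogenesis, 1.20, 2.27 and 2.67 for the citric acid cycle, and 0.97, 2.17 and 1.92 for ATP synthase. It was -1.08, -2.74 and -2.86 for purine synthesis and 0.70, -0.32 and -0.32 for glycolysis. For ribosome biogenesis it was -3.06, -1.27 and -1.67. The Yrr1S and Yrr1Y medians lay close together and the Yrr1IE medians stood apart. Those of Yrr1IE were lower for gluconeogenesis, the citric acid cycle and ATP synthase, nearer to 0 for purines and further down for ribosome biogenesis. Each median is of changes against YPD with the same allele. In YPD, the study reports, *ADE* genes other than *ADE16* were lower with Yrr1IE than with the other alleles. For the stress genes of Msn2 and Msn4 the medians were closer among the alleles, with 3.16, 3.59 and 4.00, but single members differed. The difference of Yrr1IE from Yrr1S was called positive for 5 and negative for 8 of the 26, against 12% and 19.4% over all genes. It was -3.77 for *HSP12*, -3.34 for *DDR2* and 1.21 for *CTT1*.

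**Figure D5:**
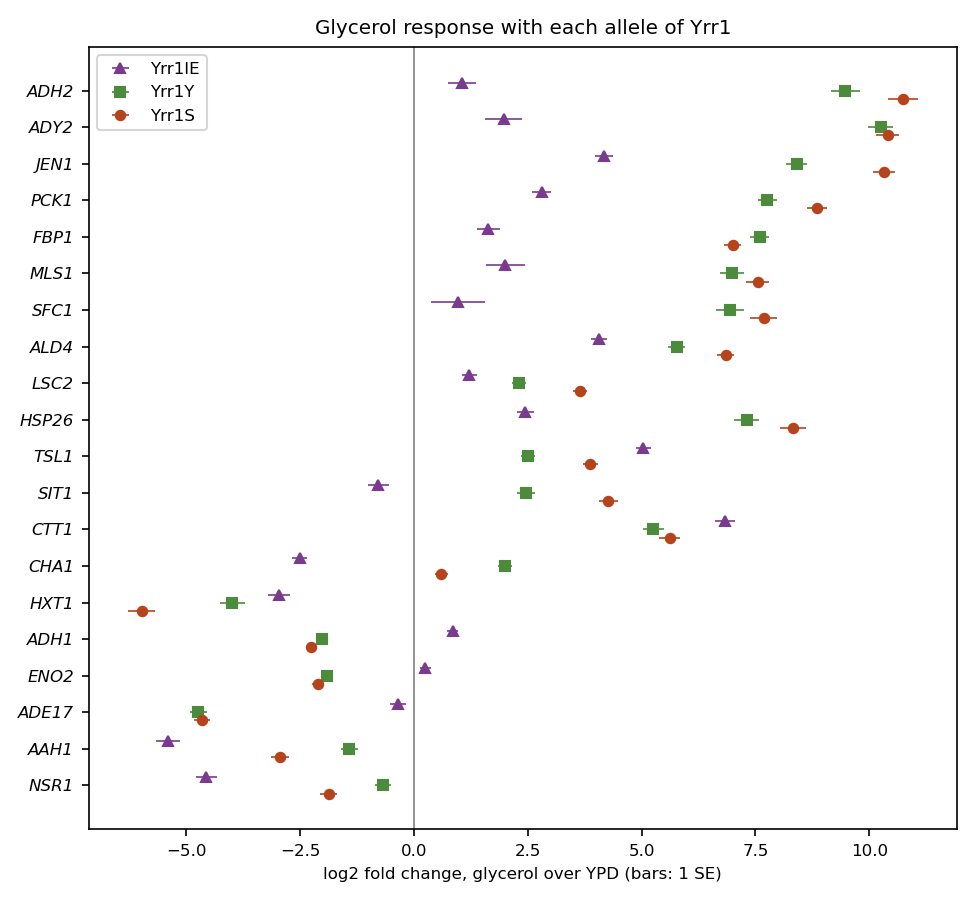
Log2 fold change of glycerol over YPD for 20 genes with Yrr1IE (triangles), with Yrr1Y (squares) and with Yrr1S (circles), with bars of 1 standard error from the edgeR fit. The Yrr1Y and Yrr1S points lie within 2 log2 units of each other, and most Yrr1IE points lie between them and 0 or on the other side of 0. Most of the 20 genes were chosen after their values were seen, so that this holds for the genes shown only.

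Several genes were followed across all 3 alleles. *CTT1* changed by 6.83 with Yrr1IE and 5.26 with Yrr1Y, against 5.62 with Yrr1S, and *SOD2* by 1.47 with Yrr1IE and 2.11 with Yrr1Y, against 2.44 with Yrr1S. *AAH1* changed by -5.40 with Yrr1IE, against -2.94 with Yrr1S (difference -2.46, edgeR adjusted p = 4.71e-06). *COX5B* was called higher with Yrr1IE (2.04) and with Yrr1Y (1.22), against 0.53 with Yrr1S, and the difference from Yrr1S was called for Yrr1IE (1.51, edgeR adjusted p = 0.00151) but not for Yrr1Y (0.69, edgeR adjusted p = 0.521). *ATO3* changed by 2.17 with Yrr1IE and 3.69 with Yrr1Y, against 4.25 with Yrr1S, and only the difference of Yrr1IE was called (-2.08, edgeR adjusted p = 3.26e-09). *IMD4* changed by -4.22 with Yrr1IE and -2.80 with Yrr1Y, against -3.88 with Yrr1S, and neither difference was called.

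Glycerol was also compared with 4NQO in YPD for the same allele, a contrast that does not use the YPD libraries. Of 5766 genes, 2607 (45.2%) were called, 1261 (21.9%) higher and 1346 (23.3%) lower in glycerol than in 4NQO. All 17 ATP synthase genes were higher in glycerol than in 4NQO (median 1.34), as were 10 of 11 gluconeogenic genes (median 4.5). So were 24 of the 28 genes of the mixed list of glucose-repressed, stationary-phase and stress genes (median 3.03). Of 134 ribosomal protein genes, 125 were lower in glycerol than in 4NQO (median -1.14). For the Msn2/4 stress genes, 19 of 26 were higher in glycerol than in 4NQO (median 1.05). In 4NQO over YPD 31.2% of genes were called. Against YPD, which both contrasts share as control, the stress list had a median of 4.00 in glycerol and 2.32 in 4NQO, the purine list -2.86 in glycerol and -1.93 in 4NQO, and the gluconeogenic list 4.66 in glycerol and 0.65 in 4NQO. *SNQ2* was lower in glycerol than in 4NQO (-1.45, edgeR adjusted p = 7.37e-10), and *ATO3*, *IMD4* and *HSP12* differed by 5.71, -3.29 and 3.08.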

How the data were processed

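RNA was sequenced as unstranded poly(A) libraries from 18 cultures, 2 for each of 9 conditions. The authors set reads of ribosomal and transfer RNA genes aside, aligned the rest to the S288c genome (R64, sacCer3) with TopHat 2.0.12, and assigned them to genes with Rsubread. They deposited these values as raw counts, and as FPKM that the authors computed from the counts and exon length. A deposited table of the authors' own comparisons holds fold changes and p-values and was not used.

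The count table was fitted with edgeR 4.0.16 in R 4.3.3, with TMM scaling, the default filter on low counts, 1 coefficient for each of the 9 conditions over 18 libraries and the quasi-likelihood test. P-values were adjusted by the Benjamini-Hochberg method over 5766 genes, and genes were called at an adjusted p below 0.05. CPM are counts per 1000000 after TMM scaling. Library totals ran between 1475372 and 2826771 counts. With 2 libraries a condition, p-values measure the spread between replicate cultures, pooled over the 9 conditions. A comparison of the 2 libraries of each condition found none that agreed within counting noise, with each count taken as independent.

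The genes named are the 15 largest rises and 15 largest falls (called, on average 20 CPM or more in these 4 libraries, with the 2 media not overlapping), up to 6 called members of each list together with members that go against it, known pairs of isoforms, and genes that the study discusses for glycerol. Any other gene named was chosen after its values were seen. The members and lists were chosen with earlier results of these data known. Genes with near-identical copies share reads that the counting may divide unevenly, as may overlapping genes, since strand was not recorded. The alternatives were DESeq2 1.42.0, its size factors, library totals, other filters, a fit of the 4 libraries alone, limma 3.58.1 on log2(FPKM + 1), a 2-fold threshold and each library left out. The fits were tested on simulated data in which only a small part of the genes changed. That does not test the scaling where 57.7% of genes were called, as here. Promoters were read from the R64 genome for 5617 genes whose coordinates matched the annotation. The sequences and coordinates come from RefSeq.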

Additional observations from a re-analysis of the deposited data

Results flagged for a closer look

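The glycerol response differed between Yrr1IE and Yrr1S for 1810 genes and between Yrr1Y and Yrr1S for 36 genes. This is by the edgeR test of the difference itself at an adjusted p below 0.05. The Yrr1IE libraries also hold at most 2 counts of *SNF1*, so that allele and *SNF1* level cannot be told apart. *YRR1* messenger RNA was also lower with Yrr1IE than with Yrr1S in both media. The part of *SNF1* and of the *YRR1* level in the differences was not tested. Between Yrr1IE and Yrr1S, all 12 genes examined one by one, which like those for Yrr1Y were chosen after their values were seen, kept the call in each of 8 fits that left out 1 library. The differences of the log2 fold changes, Yrr1IE minus Yrr1S, were -9.68 for *ADH2*, -8.44 for *ADY2*, -6.71 for *SFC1*, -6.05 for *PCK1*, -5.88 for *HSP26*, -5.54 for *MLS1*, -5.37 for *FBP1*, -5.05 for *SIT1* and -2.97 for *DIC1*, the mitochondrial dicarboxylate carrier. They were 4.30 for *ADE17*, 3.11 for *ADH1* and 2.37 for *ENO2*. The differences of *ADE17* and, for the most part, *HSP26* lay in YPD. There *ADE17* had 194 and 160 CPM with Yrr1IE, against 3386 and 4507 CPM with Yrr1S. *HSP26* had 377 and 336 CPM in YPD with Yrr1IE, against 12 and 7.51 CPM with Yrr1S.

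Between Yrr1Y and Yrr1S, the differences of *SIT1* (-1.8), *LSC2* (-1.34) and *CHA1* (1.39) kept the call in all 8 fits. Those of *TSL1*, a trehalose synthase subunit (-1.36), and *AAH1* (1.52) kept it in 7, and that of *GLK1* (-1.0) in 4. In glycerol *TSL1* had 985 and 1089 CPM with Yrr1Y and 924 and 1162 CPM with Yrr1S. In YPD it had 180 and 184 CPM with Yrr1Y, against 83.7 and 59.7 CPM with Yrr1S. *GLK1* had 5564 and 5373 CPM in glycerol with Yrr1Y and 4410 and 5566 CPM with Yrr1S. Its YPD levels were 591 and 646 CPM with Yrr1Y, against 323 and 242 CPM with Yrr1S. For *SIT1* and *CHA1*, most of the difference lay in YPD, where *SIT1* was higher and *CHA1* lower with Yrr1Y than with Yrr1S. The differences of *JEN1* (-1.92) and *NSR1* (1.19) kept it in 3, and those of *ALD4* (-1.08), *HXT1* (1.99) and *NOG2*, a GTPase of ribosome biogenesis (1.22), kept it in 2.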

How the results depend on the processing

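The count of genes called in glycerol over YPD with Yrr1S was 3327. It lay between 2955 and 3380 under the other scalings, filters and tools, and between 2850 and 3081 when 1 of the 4 libraries was left out. With a threshold of 2-fold added it was 2057, with 1149 higher and 908 lower. By library totals 2041 were higher and 1339 lower, and with limma on log2(FPKM + 1) 1969 were higher and 1277 lower, against 1678 and 1649 with TMM. The count of genes whose response differed between Yrr1Y and Yrr1S, 36 with TMM, was 23 by library totals, 67 with DESeq2 and 6 to 93 when 1 library was left out. The count for Yrr1IE against Yrr1S, 1810, lay between 1664 and 1914 under other settings and between 1468 and 1650 when 1 library was left out. The count for glycerol over 4NQO, 2607, lay between 2394 and 2609, and between 1958 and 2337 when 1 library was left out. Of 2888 values of 263 named genes under alternatives, 2836 kept direction and call, 44 lost the call, 6 gained it and 2 changed sign. Both sign changes were of *SNF1*, which was not called and had 0.016 by library totals and 0.014 with limma. Of 1144 counts of called list members, 1065 stayed within 1.5 times of the count given. The cause of these shifts was not tested. No paired analysis was possible because neither the labels nor the methods say which libraries of different media came from the same parent culture. Genes with few counts in YPD have wide counting intervals, given beside their values.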

Other observations

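The 2-micron plasmid of yeast spreads copies of itself through a recombinase and a pair of partitioning proteins. The genes of these 3 proteins were singled out after their values were seen. *REP1*, a partitioning protein, had 3029 and 3374 counts in glycerol, against 801 and 1061 counts in YPD (log2 fold change 1.82, SE 0.14, edgeR adjusted p = 9.52e-13). *FLP1*, the recombinase, had 1955 and 2249 counts in glycerol, against 1232 and 1442 counts in YPD (log2 fold change 0.68, SE 0.11, edgeR adjusted p = 6.52e-06). *REP2*, the other partitioning protein, had 727 and 683 counts in glycerol and 568 and 746 counts in YPD and was not called (0.14, edgeR adjusted p = 0.377). The changes of *REP1* were 1.79 with Yrr1IE and 1.99 with Yrr1Y. A copy number of the plasmid was not measured.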
